A study of Mus musculus with 11 samples.

Results

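The genes of insulin, PI3K, Akt and mTOR signaling described here were 43 genes of a list chosen by pathway membership, and *Pik3ip1* prompted the list because its level rose in siRNA1-transfected MLTCs alone. Probes were assigned by matching their RefSeq accessions to gene symbols. Of the 43 genes, 41 had at least 1 probe named in this way, among 17016 genes named on the array, and *Irs2* and *Phlpp1* were not analysed here. The brightest probe of 38 genes passed the filter on dim probes, as it did for 11816 named genes. The brightest probes of *Grb10*, *Pik3cd*, and *Inpp4b* were not well above background on every array of any group and were not tested. *Pik3ip1* passed the filter only through the siRNA1 arrays, so its values are given as a description with no test, and the counts below are over the other 37 genes.

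The arrays measured RNA from MLTC-1 cells (MLTCs), a line of mouse Leydig tumor cells. The cells were transfected with the non-targeting RNA 4611G (control, 4 arrays), with siRNA1 (4 arrays), or with siRNA2 (3 arrays). Each was used at 20 nM, and the stated incubation was 48 hours. Both siRNAs are designed to silence *Mamld1* and differ in sequence. *Mamld1* is linked to male genital development. Every cell, control cells included, received Lipofectamine RNAiMAX. The methods name triplicate hybridization, whereas the groups hold 4, 4, and 3 arrays. The methods also state that human chorionic gonadotropin was added after these 48 hours. By the methods, RNA was harvested at the time of the steroid measurements that followed, whereas the labels name no such treatment. Nothing in the labels says that the arrays of a group came from separate cultures, so p-values measure the spread between these arrays, which may be technical.

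Insulin and related factors bind receptors that recruit adaptor proteins and the lipid kinase PI3K. The lipid made by PI3K brings Pdpk1 and Akt to the membrane, and Akt phosphorylates FoxO transcription factors, Gsk3 kinases, and Tsc2. Loss of Tsc2 activity leaves Rheb active, and Rheb switches on the mTOR complex mTORC1, which drives protein synthesis through S6 kinases and the eIF4E-binding proteins, while AMPK restrains it when energy is low. In Leydig cells, insulin and related growth factors are known to act together with luteinizing hormone on growth and steroid synthesis.

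*Mamld1* stood at 85.2% to 119% of the control mean on the control arrays, 44.1% to 77.0% with siRNA1, and 45.3% to 68.6% with siRNA2. On each array, 58.6% to 62.6% of spots passed the scanner software's test for well above background, and 0 were saturated. All 8 Leydig cell markers examined were well above background on all 11 arrays, whereas 4 of 7 macrophage, 4 of 6 endothelial, and 3 of 8 Sertoli cell markers were above it on none. On all 11 arrays, 3 Sertoli cell markers, 1 macrophage marker, and 1 endothelial marker were also above it. Marker lists were summed after scaling and are given in percent of the control mean. The Leydig list was at 85.2% to 112% on the control arrays, 77.5% to 89.5% with siRNA1, and 91.9% to 111% with siRNA2, and of its 8 genes, all tested, 3 were lower with siRNA1, *Cyp17a1* (-0.92, limma adjusted p = 0.000216), *Lhcgr* (-0.63, limma adjusted p = 0.00285), and *Scarb1* (-0.58, limma adjusted p = 0.0191). With siRNA2, *Cyp17a1* alone was called (-0.48, limma adjusted p = 0.0237), and *Cyp11a1*, *Cyp17a1*, and *Lhcgr* were lower with siRNA1 than with siRNA2. Of the 8 genes, 37.5%, 12.5%, and 37.5% were lower with siRNA1, with siRNA2, and between the siRNAs. Of all named genes tested, 18.7%, 12.2%, and 14.4% were. The Sertoli list was at 92.7% to 103% on the control arrays, 83.5% to 97.8% with siRNA1, and 109% to 125% with siRNA2, with *Sox9*, *Wt1*, and *Dmrt1* above background on none. Of its 3 tested genes, *Rhox5* was lower with siRNA1 (-0.58) and *Inha* lower with siRNA1 than with siRNA2 (-0.36). The endothelial list was at 95.5% to 104% on the control arrays, 186% to 256% with siRNA1, and 162% to 197% with siRNA2, with *Tek*, *Kdr*, *Emcn*, and *Vwf* above background on no array and *Cdh5*, the 1 gene tested, higher at log2 fold changes of 1.22 and 0.84. The peritubular myoid list, with 3 of 5 markers above background on all arrays, was at 91.1% to 116%, 78.5% to 114%, and 80.7% to 121% in the same order of groups, with *Des* lower with siRNA1 (-0.72). The macrophage list, without *Ptprc*, *Adgre1*, *Lyz2*, and *Mrc1* on any array, was at 93.5% to 104%, 76.4% to 134%, and 65.0% to 84.9%, and its 1 tested gene was not called. The calls in these short lists stand beside shares of all named genes called in either direction. Those shares were 29.3% with siRNA1, 20.2% with siRNA2, and 26.3% between the siRNAs. The part of these markers in the results was not tested, and a change in the number of cells of a type cannot be told apart from a change in RNA per cell.

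A level is expressed in percent of the geometric mean over control arrays of the same probe, after each array was scaled to the 75th percentile of its signals, and levels are not compared between probes. Unless stated otherwise, a gene is given by its brightest probe, and it is called when the Benjamini-Hochberg adjusted p of the limma fit over all 11 arrays and 24250 probes is 0.05 or less. The comparisons of each siRNA with control share the 4 control arrays and are therefore given side by side.

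With siRNA1, 8 of the 37 genes rose and 2 fell, and with siRNA2, 7 rose and 5 fell. Directly compared, 8 genes were higher and 5 lower with siRNA1 than with siRNA2. *Deptor*, which encodes an inhibitory subunit of the mTOR complexes, rose with siRNA1 and fell with siRNA2. *Eif4e2*, *Sgk1*, and *Pdpk1* rose with both siRNAs. The share of all named genes called in no comparison is not given, with or without the slide block, so the next counts only describe the list. Of the 37 genes, 18 were called in none of the 3 comparisons, among them both insulin receptor and adaptor genes tested, *Akt1*, *Akt2*, *Tsc1*, *Tsc2*, and all of the Gsk3 and FoxO genes. With slide as a block, 7 of these 18 were called, namely *Akt1* with siRNA1 (-0.31), *Foxo1* with siRNA2 (0.25), *Tsc2* with siRNA2 (-0.48) and between the siRNAs (0.39), and, between the siRNAs only, *Rictor* (0.37), *Rptor* (-0.23), *Gsk3b* (0.21), and *Inppl1* (-0.24).

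The share of the 37 genes called with siRNA1 was 27%, against 29.3% of the 11816 named genes tested. By direction, 21.6% of the 37 were higher and 5.41% lower, beside 10.6% and 18.7% of all named genes. With siRNA2, 32.4% of the 37 genes were called, against 20.2% of all named genes, with 18.9% higher and 13.5% lower beside 8.02% and 12.2%. Between the siRNAs, the share was 35.1%, against 26.3% of all named genes, with 21.6% higher and 13.5% lower beside 11.8% and 14.4%. The median log2 difference over the 37 genes was 0.07 with siRNA1, -0.09 with siRNA2, and 0.02 for siRNA1 minus siRNA2, beside -0.08, -0.02, and -0.07 over all named genes. At an adjusted p of 0.05 and a change of at least 2-fold, *Deptor* and *Eif4e2* were called with siRNA1, where 3.06% of all named genes were, and *Sgk1*, *Deptor*, and *Eif4e2* with siRNA2, where 2.42% were. Between the siRNAs, *Pik3cb*, *Deptor*, and *Prkaa2* passed both thresholds, as did 3.52% of all named genes.

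All 35 called differences had no overlap between the arrays of the groups compared. Each of the 3 slides held arrays of all groups, so the same direction on every slide follows from this and is not further support. Called or not, 9 of the 37 genes lay above and 3 below every control array with siRNA1, where 11.7% and 20.1% of all named genes did, and 10 lay above and 7 below with siRNA2, where 13.1% and 18.1% did. Between the siRNAs, 9 genes lay wholly above and 6 wholly below with siRNA1, beside 15.3% and 19.8% of all named genes. With slide as a block, all 35 were again called, and the counts were 9 higher and 3 lower with siRNA1, 8 and 6 with siRNA2, and 11 and 8 between the siRNAs. The two-sided exact permutation test gave 0.0286, the smallest p that 4 arrays against 4 or 3 allow, for 33 of the 35. The exceptions lay between the siRNAs, where 11 of the 13 called genes reached it although the groups did not overlap. For the 33, a p this small requires the lack of overlap and is not further support. After quantile normalization, the counts were 10 higher and 1 lower with siRNA1, 9 and 4 with siRNA2, and 8 and 2 between the siRNAs, and with median scaling they were 8 and 1, 6 and 4, and 8 and 2. Shares of all named genes are not given for the slide block, quantile normalization, or median scaling. These counts therefore show only how the calls depend on the processing. With normexp background correction, 0 of the 37 genes passed the adjusted threshold in limma, with 9, 6, and 6 at an unadjusted p under 0.05 in the 3 comparisons, and of all 24250 probes 381, 123, and 81 were called. With 0 to 34 extreme local backgrounds per array replaced by the array's median, an alternative chosen after seeing the data, normexp gave 10, 13, and 11 called genes. Of all 24250 probes, 7468, 3763, and 5474 were called in this version.

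**Figure D1:**
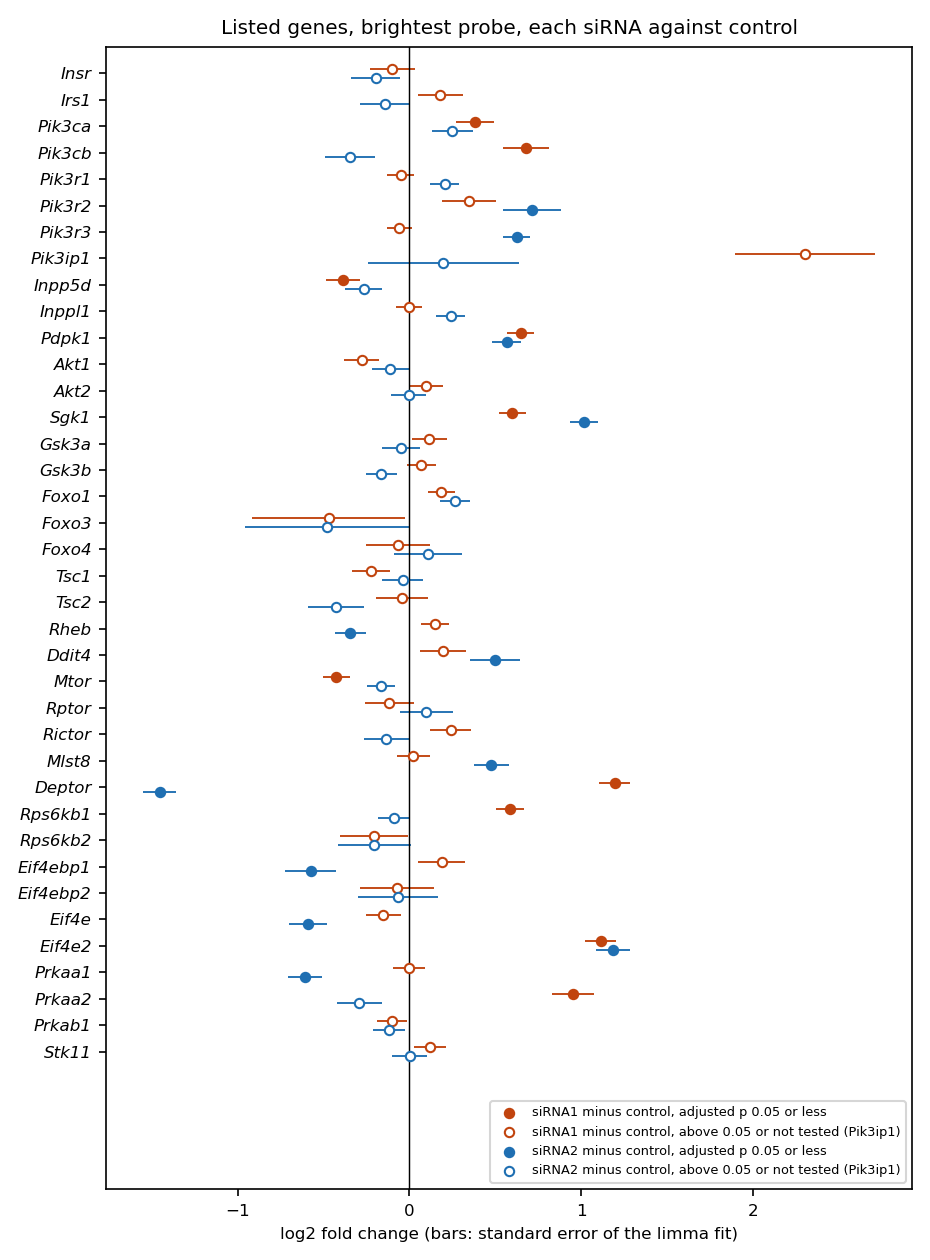
Log2 fold changes against control (x axis) of the brightest probe of the 38 genes that passed the filter, with siRNA1 in red and siRNA2 in blue. Bars are standard errors of the limma fit, filled points have an adjusted p of 0.05 or less, and *Pik3ip1* was not tested. *Deptor* lies at 1.20 with siRNA1 and -1.45 with siRNA2.

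*Pik3ip1* encodes a membrane protein that binds and inhibits the catalytic subunits of PI3K, and 1 probe measured it. It stood at 582%, 458%, 459%, and 489% of the control mean on the siRNA1 arrays. It was at 141%, 56.8%, 103%, and 121% in control cells, and with siRNA2 at 47.1%, 160.0%, and 200.2%. Each siRNA1 array was above every other array, whereas the siRNA2 arrays spanned the range of the control arrays. The probe was dim. Its signal was 19.5 to 25.5 on the 4 siRNA1 arrays, all well above background, 1.89 to 5.11 on the control arrays, and 1.92 to 6.94 on the siRNA2 arrays, none of them well above background. When each dim value was raised to the weakest signal that counted as well above background on that array, *Pik3ip1* was at least 2.43-fold higher with siRNA1 than with control, and at least 2.43-fold higher than with siRNA2. The fitted log2 differences from control, which are measured at background in the dim groups, were 2.31 with siRNA1 and 0.20 with siRNA2.

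The insulin receptor gene *Insr* and the adaptor gene *Irs1* were called in no comparison. *Insr* lay at log2 fold changes of -0.10 (SE 0.13) with siRNA1 and -0.20 (SE 0.14) with siRNA2, and *Irs1* at 0.18 (SE 0.13) and -0.14 (SE 0.14). The *Insr* probe was dim, with signals of 15.3 to 24.7 over all arrays. All of the probes of *Grb10*, an adaptor that dampens insulin receptor signaling, were too dim to test.

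Both catalytic PI3K subunits that could be tested rose with siRNA1. *Pik3cb*, the beta subunit, stood at 110.2%, 102%, 96.8%, and 91.9% on the control arrays. It was at 164%, 131%, 186%, and 166% with siRNA1, and at 96.8%, 72.1%, and 69.8% with siRNA2. All siRNA1 arrays were above all others, while siRNA2 array 1 lay within the control range. *Pik3cb* rose by 0.68 on the log2 scale with siRNA1 (SE 0.13, limma adjusted p = 0.00327), siRNA2 gave -0.35 (SE 0.14, limma adjusted p = 0.129), and the siRNA1 minus siRNA2 difference was 1.03 (SE 0.14, limma adjusted p = 0.000438). Within the 3 slides, this difference was 0.76, 1.11, and 1.25. Without siRNA2 array 1, the lower level with siRNA2 was called as well (-0.50, limma adjusted p = 0.0372, within 0.0372 to 0.738 over all alternatives). *Pik3ca*, the alpha subunit, rose less, to 131% ± 17.6 (SD, n = 4) with siRNA1 (log2 fold change 0.38, SE 0.11, limma adjusted p = 0.0245). This call was lost with no filter on dim probes and without control array 1 or 4 or siRNA1 array 1 or 3, with values of 0.31 to 0.47 over the fits that left out 1 array. With siRNA2, *Pik3ca* was at 119% ± 12.8 (SD, n = 3), which did not pass the threshold (0.25, SE 0.12, limma adjusted p = 0.185). The probe of *Pik3cd*, the delta subunit, was dim on all arrays and was not tested.

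Of the regulatory PI3K subunits, which hold and stabilize the catalytic ones, *Pik3r3* and *Pik3r2* rose with siRNA2. *Pik3r3* stood at 99.97%, 109%, 94.7%, and 96.9% on the control arrays. With siRNA1 it was at 99.1%, 91.5%, 97.1%, and 96.5%, and with siRNA2 at 159%, 157%, and 147%. The siRNA2 arrays were above all of the others, and siRNA1 and control arrays overlapped. Its log2 fold change was 0.62 with siRNA2 (SE 0.080, limma adjusted p = 0.000315) and -0.06 with siRNA1 (SE 0.074, limma adjusted p = 0.606), with a difference of -0.68 between the siRNAs (SE 0.080, limma adjusted p = 0.000127). The other *Pik3r3* probes gave 0.43 and 0.60 with siRNA2 (limma adjusted p = 0.0404 and 0.00546) and -0.15 and -0.01 with siRNA1 (limma adjusted p = 0.384 and 0.955). *Pik3r2* was at 90.3%, 87.8%, 109%, and 116% on the control arrays, 103%, 136%, 127%, and 146% with siRNA1, and 135%, 158%, and 208% with siRNA2. The siRNA2 arrays of *Pik3r2* varied more than those of *Pik3r3*, and all 3 were above the control arrays. The rise of *Pik3r2* with siRNA2 was 0.72 on the log2 scale (SE 0.17, limma adjusted p = 0.0126), a call that was lost without siRNA2 array 3 (0.55, limma adjusted p = 0.0512, within 0.000426 to 0.516 over all alternatives) and by the methods' t-test. With siRNA1 its value was 0.35 (SE 0.16, limma adjusted p = 0.127). Blocking on slide made this 0.27 (limma adjusted p = 0.0168, within 0.0168 to 0.613 over all alternatives).

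The 4 probes of *Pik3r1*, a widely expressed regulatory subunit, did not move together. By the brightest, siRNA1-transfected MLTCs had 96.7% ± 7.03 (SD, n = 4) and siRNA2-transfected MLTCs 115% ± 3.02 (SD, n = 3), and its difference between the siRNAs was -0.26 (SE 0.084, limma adjusted p = 0.0484). That call was lost in every fit that left out 1 array except the fit without siRNA1 array 1, with differences of -0.30 to -0.22. It was also lost with quantile normalization, median scaling, no filter, separate fits, the methods' t-test, and extreme local backgrounds replaced, and with probes averaged the difference was -0.13. A dimmer *Pik3r1* probe fell with siRNA1 to 77.2% ± 5.04 (SD, n = 4), with a log2 fold change of -0.38 (SE 0.096, limma adjusted p = 0.0138), where the brightest gave -0.05 (SE 0.078, limma adjusted p = 0.677). The remaining *Pik3r1* probes gave 0.20 and -0.07 with siRNA1, and neither was called in any comparison.

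Of the phosphatases that remove PI3K lipid products, *Inpp5d* fell with siRNA1, from 93.2%, 103%, 95.4%, and 109% on the control arrays to 81.9%, 66.4%, 83.8%, and 75.2%. The siRNA2 arrays were at 77.9%, 92.9%, and 79.7%, below the control arrays by a narrow margin. The *Inpp5d* probe was dim, with signals of 19.4 to 32.3 over all arrays. The log2 fold change of *Inpp5d* was -0.39 with siRNA1 (SE 0.10, limma adjusted p = 0.0150) and -0.26 with siRNA2 (SE 0.11, limma adjusted p = 0.122). The siRNA1 call was lost after quantile normalization (-0.35), with median scaling (-0.34), and with a variance trend and robust moderation, and with normexp correction the value was 0.73 and not called. *Inppl1*, its relative, lay at -0.00 with siRNA1 (SE 0.076) and 0.24 with siRNA2 (SE 0.082, limma adjusted p = 0.0665). *Inpp4b* was too dim to test.

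*Pdpk1*, the kinase that phosphorylates Akt and Sgk kinases, rose with both siRNAs. Its levels were 91.9%, 104%, 100.1%, and 104% on the control arrays. They were 164%, 162%, 150.03%, and 151% with siRNA1, and 138%, 157%, and 151% with siRNA2. Every siRNA array was above every control array, and the siRNA groups overlapped. The log2 fold change was 0.65 with siRNA1 (SE 0.079, limma adjusted p = 0.000154) and 0.57 with siRNA2 (SE 0.085, limma adjusted p = 0.000906), with 0.08 between the siRNAs (SE 0.085, limma adjusted p = 0.536). With normexp correction, the siRNA1 value was 0.37 and not called. Of the dimmer *Pdpk1* probes, 1 was called with both siRNAs (0.50 and 0.56, limma adjusted p = 0.0295 and 0.0343), and the other gave 0.37 and 0.40 without passing the threshold (limma adjusted p = 0.175 and 0.218).

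*Sgk1*, a kinase related to Akt whose transcription responds to serum, steroids, and cell stress, rose further with siRNA2 than with siRNA1. It stood at 109%, 99.3%, 94.4%, and 98.3% on the control arrays. With siRNA1 the arrays gave 156%, 143%, 163%, and 145%, and with siRNA2 they gave 204%, 203%, and 201%. The 3 groups did not overlap. The log2 fold change was 0.60 with siRNA1 (SE 0.076, limma adjusted p = 0.000205) and 1.02 with siRNA2 (SE 0.082, limma adjusted p = 1.64e-05), and the siRNA1 minus siRNA2 difference was -0.42 (SE 0.082, limma adjusted p = 0.00364). On the 3 slides the difference between the siRNAs was -0.38, -0.41, and -0.47, and after quantile normalization it was -0.34 (limma adjusted p = 0.0509, within 0.00106 to 0.877 over all alternatives). With normexp correction, the siRNA1 value of *Sgk1* was 0.27 and not called. *Akt1* lay at -0.28 with siRNA1 (SE 0.10, limma adjusted p = 0.0651) and -0.11 with siRNA2 (SE 0.11, limma adjusted p = 0.577). The brighter *Akt2* probe gave 0.10 with siRNA1 and -0.00 with siRNA2 and a difference of 0.10 (SE 0.10, limma adjusted p = 0.514), while the dimmer gave 0.31 and -0.11, with a difference of 0.42 (SE 0.13, limma adjusted p = 0.0387).

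None of the 5 Akt substrates of the FoxO and Gsk3 families was called without the slide block. *Foxo1* was above the control arrays on every siRNA array, at log2 fold changes of 0.19 (SE 0.079, limma adjusted p = 0.105) and 0.27 (SE 0.085, limma adjusted p = 0.0526). *Gsk3a* and *Gsk3b* lay between -0.16 and 0.12. *Foxo3* could not be measured closely, since its control arrays ran from 52.7% to 276%, and its values of -0.47 and -0.48 had standard errors of 0.44 and 0.48. *Foxo4*, by a dim probe with signals of 9.63 to 21.7 over all arrays, gave -0.07 and 0.11 with standard errors of 0.19 and 0.20.

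*Rheb*, the small GTPase that switches on mTORC1, fell with siRNA2. It was at 113%, 102%, 90.6%, and 96.1% in non-targeted MLTCs, at 117%, 110.3%, 109%, and 108% with siRNA1, and with siRNA2 at 82.0%, 79.2%, and 75.4%. The siRNA2 arrays were below all others. On the log2 scale, *Rheb* changed by -0.34 with siRNA2 (SE 0.089, limma adjusted p = 0.0206) and 0.15 with siRNA1 (SE 0.083, limma adjusted p = 0.212), and the difference between the siRNAs was 0.49 (SE 0.089, limma adjusted p = 0.00223). The siRNA2 call was lost without control array 1 or siRNA2 array 2 or 3 (-0.39 to -0.29 over the fits that left out 1 array), after quantile normalization (-0.30), with median scaling (-0.34), with no filter, in separate fits, and by the methods' t-test, and normexp correction gave -0.55 without a call. In contrast, the difference between the siRNAs stayed past the threshold without any 1 array. *Ddit4*, a stress-induced inhibitor of mTORC1 that acts through the TSC complex, was at 116%, 150.1%, and 162% with siRNA2, above the control arrays at 85.6%, 108%, 107%, and 102%. Its log2 fold change with siRNA2 was 0.50 (SE 0.14, limma adjusted p = 0.0333), and the call was lost without control array 1, 3, or 4 or siRNA2 array 2 or 3 (0.40 to 0.64), with median scaling, with no filter, in separate fits, and by the methods' t-test, and normexp correction gave 0.26 without a call. With siRNA1, *Ddit4* gave 0.20 (SE 0.13, limma adjusted p = 0.310), which quantile normalization made 0.32 and called (limma adjusted p = 0.0223, within 0.0223 to 0.574 over all alternatives). Without siRNA2 array 1, the siRNA1 minus siRNA2 difference of -0.30 (limma adjusted p = 0.161) became -0.44 (limma adjusted p = 0.0486, within 0.0288 to 0.849 over all alternatives). *Tsc1* and *Tsc2*, the subunits that turn Rheb off, were not called without the slide block, with *Tsc2* at -0.43 with siRNA2 (SE 0.16, limma adjusted p = 0.0961).

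Among the mTOR complex genes, *Deptor* differed most between the siRNAs. It stood at 97.1%, 88.8%, 106%, and 109.8% on the control arrays. In siRNA1-transfected MLTCs it reached 224%, 241%, 221%, and 231%, whereas siRNA2-transfected MLTCs had 33.2%, 39.7%, and 36.9%. The groups were far apart relative to their spread, with siRNA1 above and siRNA2 below the control arrays. *Deptor* rose 2.29-fold with siRNA1 (log2 fold change 1.20, SE 0.090, limma adjusted p = 7.33e-06) and was 2.74-fold lower with siRNA2 (-1.45, SE 0.097, limma adjusted p = 4.77e-06). The direct difference was 2.65 on the log2 scale, or 6.28-fold (SE 0.097, limma adjusted p = 8.83e-08). Within the slides it was 2.75, 2.54, and 2.64, and the fit blocked on slide gave 2.64 (limma adjusted p = 5.37e-07). The exact permutation test, two-sided, gave p = 0.0286 in all 3 comparisons of *Deptor*. With normexp correction, no *Deptor* value was called, at 1.03 with siRNA1, -0.47 with siRNA2, and 1.502 between them (limma adjusted p = 0.122, 0.738, and 0.0953, the highest over all alternatives, where the lowest were 1.16e-06, 8.93e-07, and 3.28e-09). With extreme local backgrounds replaced, the siRNA2 value was -0.91 and called. A single probe measured the gene.

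*Mtor*, the kinase itself, fell with siRNA1. It was at 101%, 98.2%, 108%, and 93.8% in control cells, at 74.7%, 70.6%, 79.2%, and 73.8% with siRNA1, and with siRNA2 at 94.8%, 85.2%, and 87.9%. The siRNA1 arrays were below all others, and siRNA2 and control arrays overlapped. *Mtor* fell by 0.42 on the log2 scale with siRNA1 (SE 0.076, limma adjusted p = 0.00199), with -0.16 for siRNA2 (SE 0.083, limma adjusted p = 0.212). The difference between the siRNAs was -0.26 (SE 0.083, limma adjusted p = 0.0420), a call kept among the fits that left out 1 array only without control array 3 or 4, with differences of -0.29 to -0.22. It was also lost with quantile normalization, median scaling, no filter, separate fits, and extreme local backgrounds replaced. *Mlst8*, a subunit of both mTOR complexes, was at 141%, 136%, and 141% with siRNA2, against 93.6%, 101%, 94.6%, and 112% on the control arrays and 90.6%, 100.1%, 101%, and 117% with siRNA1. Its siRNA2 arrays were above all others. On the log2 scale, *Mlst8* differed from control by 0.48 with siRNA2 (SE 0.10, limma adjusted p = 0.00741) and 0.02 with siRNA1 (SE 0.094, limma adjusted p = 0.884), with a difference of -0.45 (SE 0.10, limma adjusted p = 0.00776) that median scaling made -0.41 and uncalled (limma adjusted p = 0.0673, within 0.00162 to 0.604 over all alternatives). *Rptor* and *Rictor*, the scaffold subunits of mTORC1 and mTORC2, were not called without the slide block, with *Rictor* at a difference of 0.38 between the siRNAs (SE 0.13, limma adjusted p = 0.0577).

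**Figure D2:**
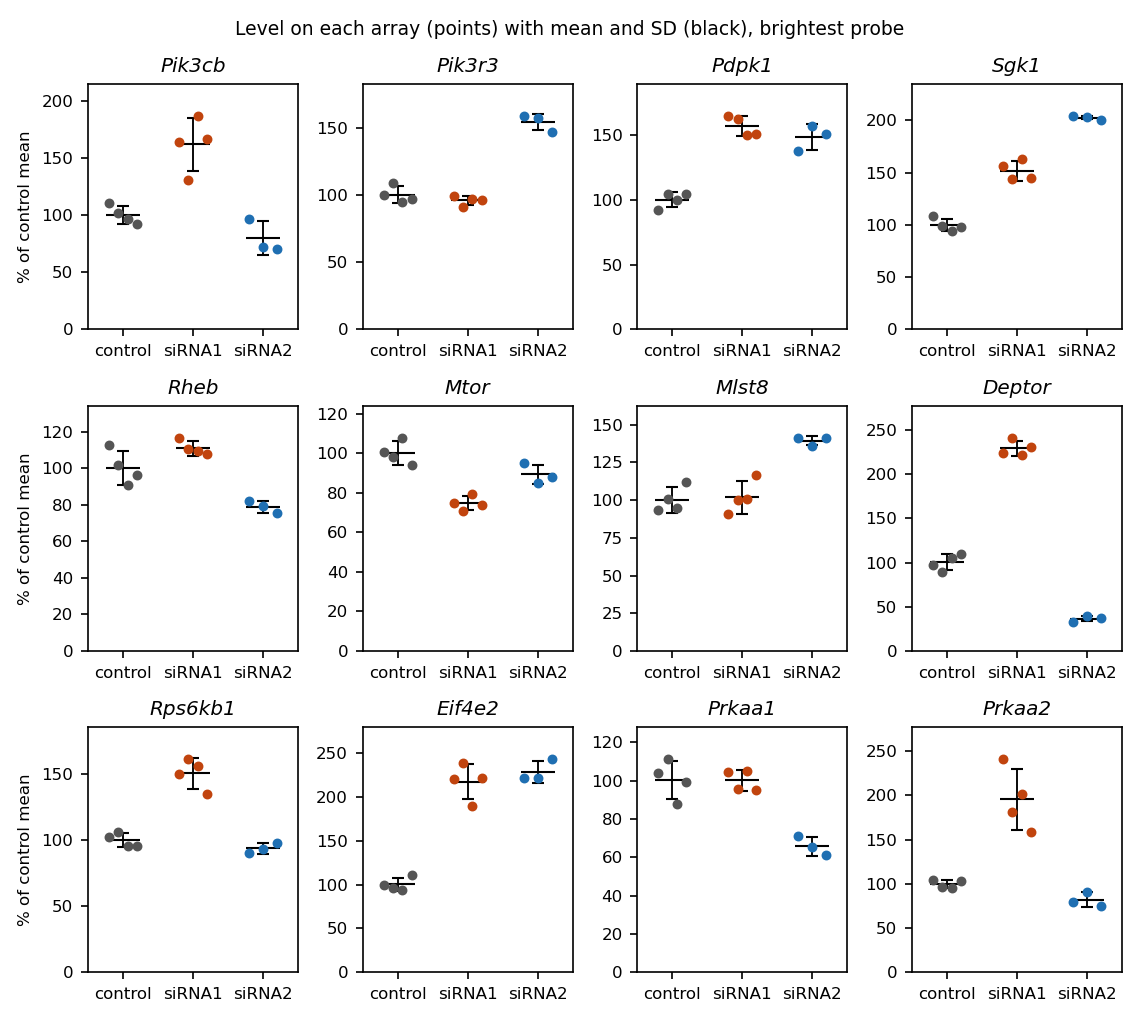
Level of 12 listed genes on each array (points), in percent of the geometric mean over control arrays, with the mean and SD of each group in black. The siRNA1 and siRNA2 arrays lie on opposite sides of the control arrays for *Deptor*, and both lie above them for *Pdpk1*, *Sgk1*, and *Eif4e2*.

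*Eif4e2* rose with both siRNAs. It encodes a cap-binding protein that, unlike eIF4E, blocks translation of the mRNAs it binds. *Eif4e2* is among the genes listed as changed in the study, from these same arrays, so its rise here is not independent evidence. Its brightest probe stood at 99.9%, 96.1%, 94.0%, and 111% on the control arrays, 220.3%, 238%, 189.9%, and 221% with siRNA1, and 221%, 221%, and 242% with siRNA2. Every siRNA array was above every control array, and the siRNA groups overlapped. The log2 fold change was 1.11 with siRNA1 (SE 0.091, limma adjusted p = 1.15e-05) and 1.19 with siRNA2 (SE 0.098, limma adjusted p = 1.91e-05), and with probes averaged 0.72 and 0.65. The probes of *Eif4e2* differed in size and, for 1 of them, in direction. Of the dimmer probes, 1 gave 1.22 and 1.18 (limma adjusted p = 3.77e-05 and 0.000129), and another 0.35 and 0.47 (limma adjusted p = 0.00572 and 0.00246). By the remaining probe the values were 0.18 and -0.26 (limma adjusted p = 0.260 and 0.178), and the difference was 0.44 between the siRNAs (SE 0.12, limma adjusted p = 0.0217).

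*Eif4e*, the cap-binding protein that starts translation, and *Eif4ebp1*, which holds eIF4E back until mTORC1 phosphorylates it, both fell with siRNA2. The brighter *Eif4e* probe was at 111%, 108%, 88.6%, and 94.3% on the control arrays, 97.1%, 85.6%, 93.1%, and 84.9% with siRNA1, and 73.5%, 66.6%, and 59.8% with siRNA2. The siRNA2 arrays were below all others. Its log2 fold change was -0.59 with siRNA2 (SE 0.11, limma adjusted p = 0.00324) and -0.15 with siRNA1 (SE 0.10, limma adjusted p = 0.302), and the difference between the siRNAs was 0.44 (SE 0.11, limma adjusted p = 0.0132). Without siRNA2 array 3, this difference was 0.36 and not past the threshold (limma adjusted p = 0.0622, within 0.00167 to 0.977 over all alternatives). The dimmer *Eif4e* probe gave -0.79 with siRNA2 (SE 0.097, limma adjusted p = 0.000269) and -0.20 with siRNA1 (SE 0.090, limma adjusted p = 0.126). *Eif4ebp1* was at 92.1%, 89.3%, 105%, and 116% on the control arrays and at 57.3%, 66.6%, and 79.4% with siRNA2, with siRNA1 at 99.0%, 127%, 102%, and 131%. Its siRNA2 arrays were below all others. *Eif4ebp1* differed from control by -0.57 on the log2 scale with siRNA2 (SE 0.15, limma adjusted p = 0.0203), lost without control array 3 or 4 or siRNA2 array 1 or 2 (-0.69 to -0.46), with no filter, and by the methods' t-test, and the difference between the siRNAs was 0.76 (SE 0.15, limma adjusted p = 0.00344). The dimmer *Eif4ebp1* probe also fell with siRNA2, by 0.83 on the log2 scale (SE 0.11, limma adjusted p = 0.000334). *Eif4ebp2* lay at -0.07 and -0.07 with standard errors of 0.22 and 0.23.

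*Rps6kb1*, the S6 kinase gene, rose with siRNA1 alone among the comparisons with control. Control cells had 103%, 106%, 95.9%, and 95.5%, siRNA1-transfected MLTCs 150.4%, 161%, 156%, and 135%, and siRNA2-transfected MLTCs 90.3%, 93.2%, and 98.1%. Its siRNA1 arrays were above all others. The log2 fold change was 0.59 with siRNA1 (SE 0.081, limma adjusted p = 0.000354) and -0.09 with siRNA2 (SE 0.087, limma adjusted p = 0.554), with a difference of 0.68 (SE 0.087, limma adjusted p = 0.000253) that was 0.74, 0.77, and 0.46 on the slides. With extreme local backgrounds replaced, the siRNA1 value was 0.33 and the difference 0.40, both called, and plain normexp correction made the difference 0.45, which was not. *Rps6kb2* was not called by its brighter probe, at -0.20 and -0.20 with standard errors of 0.20 and 0.21. Its dimmer probe gave -0.35 with either siRNA (SE 0.11, limma adjusted p = 0.0292 with siRNA1 and 0.0544 with siRNA2).

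The AMPK catalytic subunits moved differently. *Prkaa2*, the alpha-2 subunit, stood at 105%, 96.4%, 95.9%, and 103% on the control arrays, 241%, 181%, 202%, and 159% with siRNA1, and 79.3%, 91.4%, and 75.3% with siRNA2. The siRNA1 arrays were above and the siRNA2 arrays below all control arrays. With siRNA1, *Prkaa2* rose by 0.95 on the log2 scale (SE 0.12, limma adjusted p = 0.000227), while the value with siRNA2, -0.29, did not pass the threshold (SE 0.13, limma adjusted p = 0.163). The difference between the siRNAs was 1.24, or 2.37-fold (SE 0.13, limma adjusted p = 7.10e-05), and on the slides it was 1.601, 1.06, and 1.08. *Prkaa1*, the alpha-1 subunit, was at 104%, 111%, 87.7%, and 99.0% on the control arrays, 104%, 95.6%, 105%, and 94.96% with siRNA1, and 71.1%, 65.1%, and 61.3% with siRNA2. The siRNA2 arrays were below all others, and the siRNA1 arrays overlapped the control arrays. *Prkaa1* fell by 0.61 on the log2 scale with siRNA2 (SE 0.099, limma adjusted p = 0.00154), with -0.00 for siRNA1 (SE 0.091, limma adjusted p = 0.995) and a difference of 0.60 (SE 0.099, limma adjusted p = 0.00117). The dimmer *Prkaa1* probe fell by 0.37 with siRNA2 (SE 0.082, limma adjusted p = 0.00867) and differed by 0.34 between the siRNAs (SE 0.082, limma adjusted p = 0.0121). The regulatory subunit gene *Prkab1* and *Stk11*, the kinase that activates AMPK, were not called and lay between -0.12 and 0.12.

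**Figure D3:**
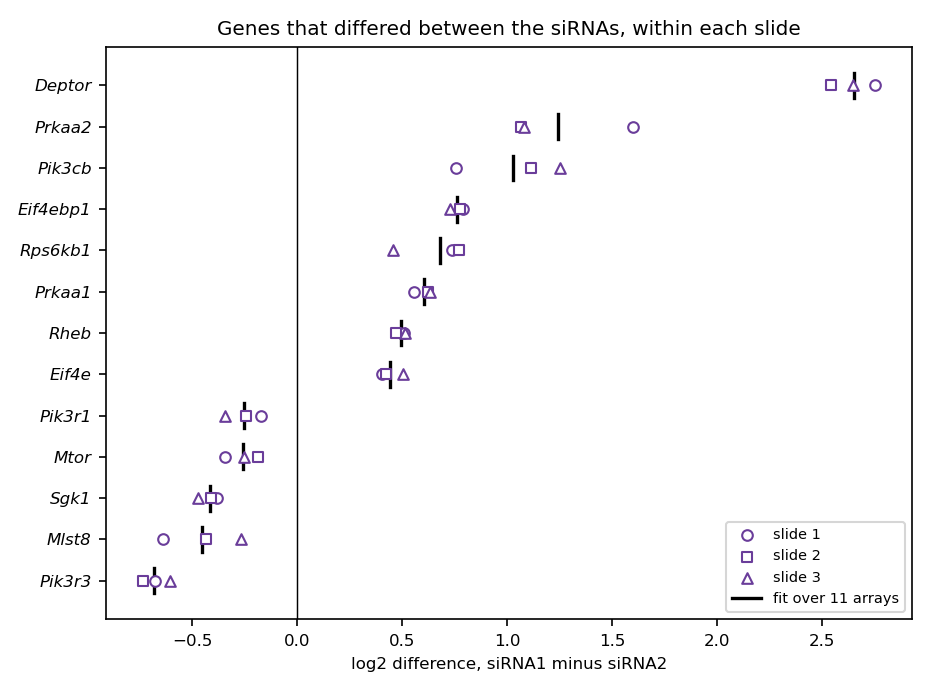
Log2 difference of siRNA1 minus siRNA2 (x axis) for the 13 genes called in that comparison, within each of the 3 slides (open symbols) and in the fit over 11 arrays (black lines). The arrays of the siRNAs did not overlap for these genes, so all slides necessarily give the same direction, and *Deptor* lies between 2.54 and 2.75.

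The 18 genes called in no comparison lay between -0.47 and 0.24 (log2 fold change) with siRNA1 and between -0.48 and 0.27 with siRNA2. Their smallest adjusted p was 0.0651 with siRNA1, 0.0526 with siRNA2, and 0.0551 between the siRNAs (limma). The widest standard errors among them, 0.44 and 0.48, were those of *Foxo3*. Over all 58 tested probes of the 37 genes, 11 were higher and 4 lower with siRNA1, where 11.8% and 15.2% of all 24250 probes were, and 12 were higher and 8 lower with siRNA2, where 7.7% and 10.7% were. Between the siRNAs, 13 of these probes were higher and 7 lower with siRNA1, where 11.7% and 11.8% of all probes were.

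**Figure D4:**
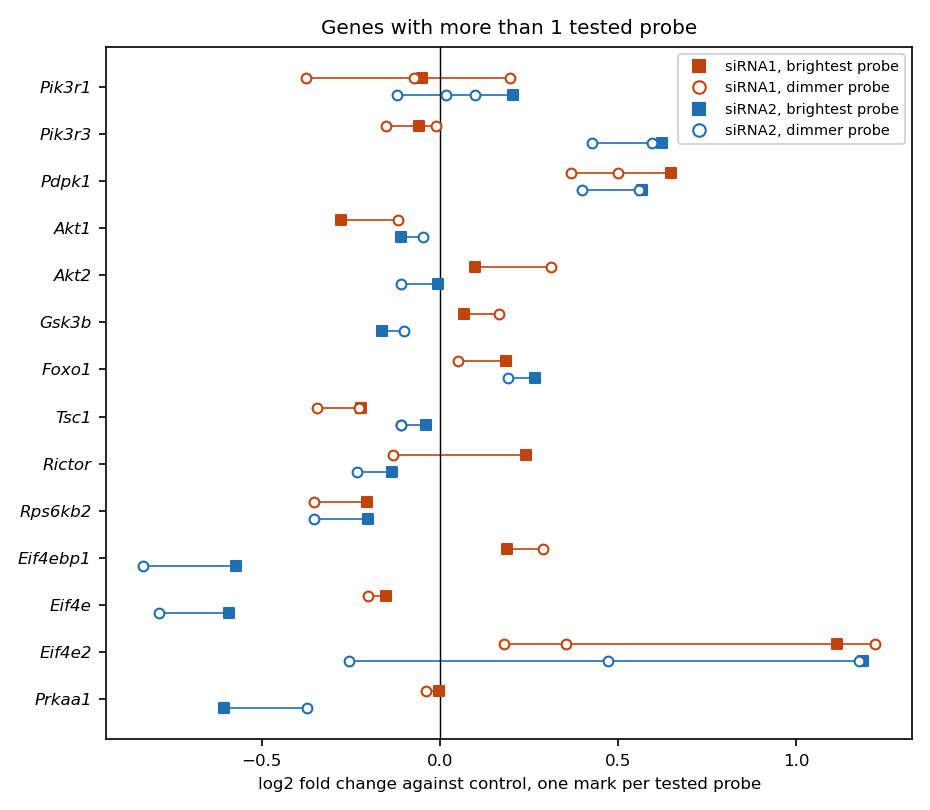
Log2 fold change against control (x axis) of each tested probe of the 14 listed genes with more than 1 tested probe, with siRNA1 in red and siRNA2 in blue, squares for the brightest probe and open circles for dimmer ones. The probes of *Pik3r3*, *Eif4ebp1*, and *Eif4e* lie on 1 side of 0 with siRNA2, whereas those of *Eif4e2* run from -0.26 to 1.19 and those of *Pik3r1* lie on both sides.

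Promoter sequences are shown for 4 genes whose levels are described above, to set members that share a short motif beside the directions in which they moved. The arrays measured RNA and not promoters. RefSeq windows (GRCm38.p6) were found for 38 of the 43 genes, and *Insr*, *Foxo4*, *Deptor*, *Rps6kb2*, and *Eif4ebp1* had no entry. The 250 bases before each listed start were searched on both strands for CACGTG (an E-box, its own reverse complement), TGACGT (the core of the cAMP response element, ACGTCA on the other strand), and GTAAACA (the FoxO core, TGTTTAC on the other strand), each counted on its own. CACGTG was in 6.02% of all 32851 windows and in windows of 5 of the 38 genes, namely *Eif4e*, *Rheb*, *Sgk1*, *Irs1*, and *Irs2*. TGACGT was in 6.47% of all windows and in those of *Eif4e2*, *Eif4ebp2*, and *Grb10*, and GTAAACA in 3.17% and in that of *Akt1*. Some genes have several listed starts and so several chances of a match. Each window below is written 5′ to 3′ on the strand of the gene, with the motif in capitals.
Eif4e, the later of 2 listed starts, chr3:138527018-138527267, + strand: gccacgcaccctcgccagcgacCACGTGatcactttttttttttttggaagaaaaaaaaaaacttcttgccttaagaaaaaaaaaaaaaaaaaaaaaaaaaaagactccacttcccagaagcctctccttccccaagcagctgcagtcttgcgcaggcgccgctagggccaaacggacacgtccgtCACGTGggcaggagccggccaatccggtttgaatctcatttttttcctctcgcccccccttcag
Rheb, chr5:24842362-24842611, - strand: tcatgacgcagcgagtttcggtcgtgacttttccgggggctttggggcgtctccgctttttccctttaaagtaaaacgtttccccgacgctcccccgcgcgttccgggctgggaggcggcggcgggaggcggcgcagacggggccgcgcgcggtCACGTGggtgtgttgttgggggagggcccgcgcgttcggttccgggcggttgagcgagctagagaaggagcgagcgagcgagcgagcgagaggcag
Sgk1, the fifth of 6 listed starts, chr10:21993640-21993889, + strand: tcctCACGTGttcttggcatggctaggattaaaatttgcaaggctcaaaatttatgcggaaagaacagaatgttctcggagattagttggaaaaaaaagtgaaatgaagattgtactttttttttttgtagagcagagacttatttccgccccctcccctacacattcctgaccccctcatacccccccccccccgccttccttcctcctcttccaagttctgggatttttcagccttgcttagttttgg
Eif4e2, the first of 3 listed starts, chr1:87213661-87213910, + strand: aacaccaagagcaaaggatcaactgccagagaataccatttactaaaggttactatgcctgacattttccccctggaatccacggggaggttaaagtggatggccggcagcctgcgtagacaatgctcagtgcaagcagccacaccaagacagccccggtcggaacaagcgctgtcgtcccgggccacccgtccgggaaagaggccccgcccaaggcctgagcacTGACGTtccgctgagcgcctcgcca
The window of *Eif4e* held CACGTG in 2 places, 64 and 228 bases before the start, that of *Rheb* in 1 place at 96 bases, and that of *Sgk1* in 1 place at 246 bases. Of the E-box genes, *Eif4e* and *Rheb* fell with siRNA2, *Sgk1* rose with both siRNAs, *Irs1* was not called, and *Irs2* was not analysed here. The *Eif4e2* window held TGACGT 25 bases before the start, and of the other genes with this motif, *Eif4ebp2* was not called and *Grb10* was not tested. The letters are a description of these windows and not of binding.

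Other genes of the pathway, from lists that hold no member of the 43, were examined in the same fit. Of 24 other PI3K-Akt genes tested, 2 rose and 3 fell with siRNA1, 1 rose and 4 fell with siRNA2, and 4 were higher and 1 lower with siRNA1 than with siRNA2, which is 20.8% in each comparison, beside 29.3%, 20.2%, and 26.3% of all named genes. *Sgk2*, a relative of *Sgk1*, was lower with both siRNAs, at log2 fold changes of -0.88 and -1.34 (limma adjusted p = 0.000392 and 6.05e-05). Of 47 other mTOR and AMPK genes tested, 6 rose and 13 fell with siRNA1, 2 rose and 10 fell with siRNA2, and 11 were higher and 6 lower with siRNA1 than with siRNA2, or 40.4%, 25.5%, and 36.2% beside the same shares of all named genes. *Eif4a2*, a helicase subunit of the cap-binding complex, rose with siRNA1 (1.24, SE 0.15) with 0.12 for siRNA2 (SE 0.16), and differed between them by 1.12 (limma adjusted p = 0.000542). *Seh1l*, part of the complex that signals amino acid supply to mTORC1, fell by 1.04 with siRNA2 (limma adjusted p = 7.53e-05), with -0.06 for siRNA1. *Rragd*, a GTPase of the same amino acid branch, differed by 1.02 between the siRNAs (limma adjusted p = 0.00896).

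Of 16 tested genes commonly given as FoxO targets, 5 rose and 3 fell with siRNA1, 7 rose and 4 fell with siRNA2, and 4 were higher and 5 lower with siRNA1 than with siRNA2. These shares of 50%, 68.8%, and 56.2% stand beside the 29.3%, 20.2%, and 26.3% of all named genes, in a short list whose members do not share 1 direction. *Cited2*, a transcription coregulator, rose with both siRNAs (0.93 and 1.06, limma adjusted p = 0.000192 and 0.000208). *G6pc*, the enzyme that releases free glucose, fell by 0.94 with siRNA1 and rose by 1.503 with siRNA2 (limma adjusted p = 3.71e-05 and 4.51e-06). *Cat*, which encodes catalase, fell by 1.38 with siRNA2 (limma adjusted p = 7.54e-05), with 0.21 for siRNA1. *Bcl6*, a transcriptional repressor, rose by 0.96 with siRNA2 (limma adjusted p = 0.000420), with -0.10 for siRNA1.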

How the data were processed

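RNA from 11 MLTC-1 samples was measured on one-colour Agilent mouse arrays, on 3 slides that each held all groups. The deposited scanner files hold a processed signal intensity per spot, which the authors obtained with Agilent Feature Extraction (version 9.5.1.1 per the file headers, 9.5 in the submitters' processing notes). A deposited table of group averages was not used. The log2 intensity of each spot was taken relative to the 75th percentile of its array, control and outlier spots were left out, and spots of a probe were averaged. Probes well above background on all arrays of at least 1 group were kept, 24250 of 41174. RefSeq named 24375 of the 41174 probes.

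Groups came from the labels. The fit over all 11 arrays used limma 3.58.1 in R 4.3.3 with Benjamini-Hochberg adjustment over all tested probes at 0.05. It was also run on simulated data with independent arrays, no slide effect, and the same changes for both siRNAs. Those data cannot test the likeness of arrays on a slide or true differences between the siRNAs. A two-sided exact permutation test was run for each gene. Means and SD are of percentages of the control mean, and the number of arrays limits the precision. The genes of the list, the other gene lists, the marker lists, and the promoter motifs were chosen with earlier results of these data known. Named genes were *Pik3ip1*, *Eif4e2*, every listed gene with a probe called in any comparison, and, of the other lists, up to 5 genes called at 2-fold or more. Further listed genes are named beside their relatives and were chosen after their values were seen. Alternatives covered background correction (normexp on the median signal, offset 50), normalization (quantile or median), the filter, outlier spots, slide and replicate blocks, separate fits, the methods' t-test, the variance prior, probe averaging, and leaving out each array. A version of normexp with extreme local backgrounds replaced was chosen after seeing the data.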

Additional observations from a re-analysis of the deposited data

Results flagged for a closer look

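In 3 of the 76 groups of 4 arrays examined, 1 array lay far from the rest, where the 95% limit used leaves a few such groups to chance. The gap to the nearest array, as a share of the range of the group, was 0.901 for control array 3 of *Pik3r1*, 0.928 for siRNA1 array 2 of *Akt2*, and 0.952 for siRNA1 array 4 of *Foxo4*.

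The direct comparison of the siRNAs was past the limma threshold for 13 genes of the list. The siRNA1 minus siRNA2 log2 difference was above 0 for *Deptor* (2.65), *Prkaa2* (1.24), *Pik3cb* (1.03), *Eif4ebp1* (0.76), *Rps6kb1* (0.68), *Prkaa1* (0.60), *Rheb* (0.49), and *Eif4e* (0.44). It was below 0 for *Pik3r3* (-0.68), *Mlst8* (-0.45), *Sgk1* (-0.42), *Mtor* (-0.26), and *Pik3r1* (-0.26). The siRNAs moved *Deptor* in opposite directions from control, both past the threshold.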

How the results depend on the processing

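Of the 35 called values, 35 stayed past the threshold in the same direction with slide as a block, with the replicate block, with outlier spots kept, and with the filter on all 11 arrays. 34 did so with the variance trend and with probes averaged, 33 with normexp after extreme backgrounds were replaced, 31 in separate fits, 30 with quantile normalization and the methods' t-test, 29 with median scaling and with no filter, and 29 to 33 with 1 array left out. With plain normexp correction, 0 did, every count fell to 0, and the median of all tested probes moved to 0.22, 0.17, and 0.11 in the 3 comparisons, from -0.05, -0.01, and -0.04. The cause was not tested.

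Over the fits that left out 1 array, genes higher and lower with siRNA1 numbered 7 to 8 and 2 to 2, those with siRNA2 5 to 7 and 3 to 5, and those between the siRNAs 8 to 9 and 3 to 4. The count lower with siRNA2 was 3 without siRNA2 array 2. The count lower between the siRNAs was 3 without control array 1 or 2, siRNA1 array 2, 3, or 4, or siRNA2 array 2 or 3. Genes lower with siRNA1 numbered 1 after quantile normalization and 1 with median scaling. Genes lower with siRNA2 numbered 3 with no filter and 3 by the methods' t-test. Genes lower between the siRNAs numbered 8 with slide as a block, 3 with extreme backgrounds replaced, 3 with no filter, 3 in separate fits, 2 after quantile normalization, and 2 with median scaling. Shares of all named genes are not given for these settings, so the counts are not set against them.

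Replicate numbers are shared between groups. Arrays with the same number had deviations from their group means that correlated with a median r of 0.298 and as low as -0.18 over 10 pairs. The median was -0.10 over 30 pairs with different numbers. Arrays of the same slide had a median r of 0.30 over 13 pairs, beside -0.12 over 27 pairs on different slides. Arrays with the same number often shared a slide, so a pairing by number cannot be told apart from a likeness by slide. With the replicate block, genes higher and lower numbered 9 and 3 with siRNA1, 8 and 6 with siRNA2, and 11 and 7 between the siRNAs. The share of all named genes called with this block is not given.

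Other values that changed sign were small or came from plain normexp. With plain normexp, *Inpp5d* gave 0.73, 0.47, and 0.25, and *Rps6kb2* 0.45, 0.26, and 0.19, with siRNA1, with siRNA2, and between them. With siRNA1 it gave *Akt2* -0.17, *Rheb* -0.18, *Ddit4* -0.16, *Mlst8* -0.16, and *Eif4ebp1* -0.16, with siRNA2 *Rps6kb1* 0.28, and between the siRNAs *Pdpk1* -0.0235 and *Akt2* -0.00315. With extreme backgrounds replaced, *Pik3r3* and *Prkaa1* with siRNA1 were 0.0218 and 0.0124 and *Akt2* with siRNA2 was 0.0239. After quantile normalization, *Pik3r3* and *Prkaa1* with siRNA1 were 0.0132 and 0.0608, *Akt2* with siRNA2 was 0.0256, and *Rps6kb2* between the siRNAs was 0.0154. With median scaling, *Prkaa1* with siRNA1 was 0.0416 and *Rps6kb2* between the siRNAs was 0.0395. *Prkaa1* with siRNA1 was 0.0369 with slide as a block, and *Akt2* with siRNA2 was 0.0171 with the replicate block. With probes averaged, *Pdpk1* and *Eif4e2* between the siRNAs were -0.00262 and 0.0736. Leaving out 1 array gave -0.0876 to 0.0496 for *Akt2* with siRNA2, -0.0439 to 0.0796 for *Mlst8* with siRNA1, -0.0640 to 0.0490 for *Prkaa1* with siRNA1, and -0.34 to 0.0347 with siRNA2 and -0.24 to 0.13 between the siRNAs for *Rps6kb2*.

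With 3 or 4 arrays per group, small differences on the log2 scale lay near the threshold, and genes whose probes were not well above background could not be compared.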
